A study of Arabidopsis thaliana with 15 samples.

Results

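Genes annotated as ubiquitin-conjugating enzymes (E2s) were described in leaf RNA of Arabidopsis thaliana Col-0 wild type (WT) and of ubc22 mutants, in which the E2 gene UBC22 is the mutated one. The genes were taken by the words of the deposited annotation, ubiquitin-conjugating or ubiquitin conjugating enzyme, on chromosomes 1 to 5. This rule found 41 genes among 32580 gene codes of the table, and used no expression value except to keep the larger of 2 loci for UBC5 and UBC18. Leaves of 21-day-old plants were sequenced, with 3 libraries in each of 5 groups, WT and 4 ubc22 subtypes. The subtypes came from 1 mutant parent and were told apart by leaf form and colour. Plants of Type I looked like WT. Type II leaves were broad and round, those of Type III pale, narrow and long, and Type IV was a small plant whose leaf margins were toothed. All groups were grown in the same conditions, and the labels name no treatment. The position of the ubc22 mutation and the number of plants in a library are not given in the sources used here. The subtype label is the leaf form itself, so a subtype is a sorted class. Whether the subtypes also differ in genotype was not tested.

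Ubiquitin reaches its target proteins through a relay of enzymes. An E1 activates it, an E2 takes it onto a catalytic cysteine, and the E2 together with an E3 ligase passes it to the substrate. Which E2 takes part decides much of the kind of ubiquitin chain that is built. UBC22 is the only Arabidopsis E2 of its kind and is closest to animal UBE2S, which lengthens ubiquitin chains with the anaphase-promoting complex. Loss of UBC22 is known to disturb female gametophyte development. Relatives of E2s carry other small modifiers (RUB by RCE1 and RCE2, SUMO by SCE1) or have lost the cysteine (COP10 and ELC).

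In most E2s the catalytic cysteine follows shortly after a His-Pro-Asn motif, and this short stretch is shown for UBC22 and for 5 members whose RNA levels the results turn on. Each line gives the coding strand 5′ to 3′ from RefSeq (TAIR10.1), and capitals mark the 3 codons of the motif and the cysteine codon.
UBC22 (AT5G05080): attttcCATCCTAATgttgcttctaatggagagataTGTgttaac
UBC10 (AT5G53300): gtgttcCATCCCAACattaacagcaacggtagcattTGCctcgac
UBC29 (AT2G16740): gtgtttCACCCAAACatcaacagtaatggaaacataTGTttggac
UBC35 (AT1G78870): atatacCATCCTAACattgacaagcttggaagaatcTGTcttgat
RCE2 (AT2G18600): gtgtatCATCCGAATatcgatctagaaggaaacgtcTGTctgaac
UBC5 (AT1G63800): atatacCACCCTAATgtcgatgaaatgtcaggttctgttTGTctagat
In UBC22 the motif begins at codon 84 and the cysteine is codon 94. Of the 40 members with a coding sequence, 24 held the motif, and in 22 of them a cysteine codon followed within 12 codons, 10 codons after the histidine in 18 genes and 11 codons after it in 4 (UBC4, UBC5, UBC6 and UBC27). In the other 2, UBC23 and AT2G32790, no cysteine codon lay within 12 codons. The 16 coding members without the motif included COP10, ELC, UBC15 to UBC18, the endoplasmic reticulum E2s UBC33 and UBC34, and UBC25. The absence of these letters says nothing about activity.

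Libraries held 8865955 to 13138977 reads assigned to loci. Within groups, libraries differed by more than sampling noise (chi-square per degree of freedom 3.79 to 19.1), so none was a repeat of another. WT replicate 1 and Type IV replicate 3 stood apart from their group mates. WT replicate 1 held 2993 normalised counts of the defence gene PR1 against 288 and 381 in the other WT libraries. Summed normalised counts of 4 leaf markers were 397408 to 571380 in all libraries, while 4 root markers summed to 11.4 or less. Flower markers summed to 41.9 to 82.5 in Type I and 55.1 to 110 in Type III, against 13.6 to 24.6 in WT, and their part in the results below was not tested. Whole leaves were sampled, so fewer cells of a type and less RNA per cell cannot be told apart. The labels give no batch.

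UBC22 RNA was lower than WT in each subtype. UBC22 (chr5:1498438-1500784, minus strand, TAIR10.1) had 663, 696 and 696 normalised counts in WT. It had 226, 252 and 305 in Type I and 227, 288 and 302 in Type II. Type III had 319.6, 294 and 296, and Type IV had 318, 378 and 243. All 12 ubc22 libraries lay below all 3 WT libraries, with 378 as the highest ubc22 value and 663 as the lowest of WT. The mean of Type I was 38.1% of that of WT. Type II stood at 39.7%, Type III at 44.3% and Type IV at 45.7%, so RNA of the gene was reduced but still read. These counts cover the whole gene and cannot tell an intact transcript from a partial one.

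On the scale of log2(normalised count + 1), UBC22 fell by 1.40 ± 0.15 (SE, n = 3 against 3) in Type I and by 1.34 ± 0.15 in Type II. It fell by 1.17 ± 0.15 in Type III, and in Type IV it fell by 1.15 ± 0.15. The adjusted p, by limma with Benjamini-Hochberg adjustment over all 17595 loci tested, was 0.000436, 0.000127, 2.11e-05 and 9.63e-05 in that order. An exact permutation test of the 3 WT against the 12 ubc22 libraries gave a 2-sided p of 0.0044, the smallest that 455 splits can give, for a log2 difference of -1.26. The subtypes were not distinguishable from each other. The 6 log2 differences between subtypes were 0.02 to 0.25, with limma adjusted p from 0.231 to 0.914. The widest, Type IV against Type I, was 0.25 ± 0.15, and it rose to 0.42 (adjusted p = 0.0402) without Type IV replicate 3, the library with 243 counts. The difference between Type IV and Type III, 0.02, changed sign to -0.12 without Type IV replicate 2.

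The 3′ end of UBC22 overlaps AT5G05070 on the other strand, and the library kit keeps no strand, but AT5G05070 was listed at 0 in all 15 libraries. Of the other loci beside UBC22, AT5G05090 changed in no subtype against WT. AT5G05060 fell by 0.43 in Type II (adjusted p = 0.0333) and rose by 0.67 in Type IV (adjusted p = 0.00109), and AT5G05100 rose by 0.55 in Type IV (adjusted p = 0.00305). The fall of UBC22 in all 4 subtypes was not shared by these neighbours.

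**Figure D1:**
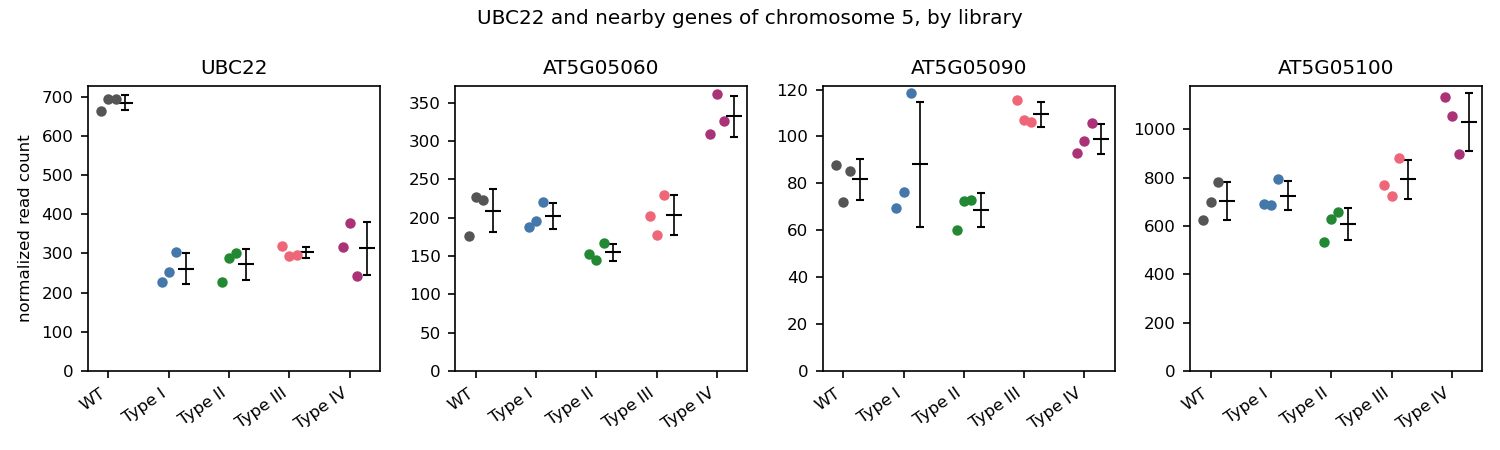
Normalised read counts (y axis, linear from 0) of UBC22 and 3 nearby chromosome 5 genes in each of the 15 libraries, by group; dots are libraries and the bar beside them is the mean ± SD of 3. UBC22 lies between 226 and 378 in the ubc22 libraries and between 663 and 696 in WT, and AT5G05060 and AT5G05100 are highest in Type IV.

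Per kilobase of exon, UBC22 was a well-read E2 gene in WT, the seventh of the set. The UBCH5-type enzymes, general E2s that work with many ligases, led the order. UBC10 stood at 2542 ± 86.2 normalised counts per kb (SD, n = 3), UBC28 at 1728 ± 103 and UBC8 at 924 ± 66.4. UBC9 and UBC19, a relative of the UBE2C enzymes that start chains on the anaphase-promoting complex, did not differ beyond their spread (760.2 ± 22.3 and 760.1 ± 61.2). UBC36 followed at 647 ± 8.83, and UBC22 stood at 424 ± 11.6. At the foot of the members tested was RCE2, a RUB-conjugating enzyme, at 14.7 ± 5.83. UBCH5-type genes together made up 51.4% ± 0.69 of the summed E2 level per kb in WT, and between 52.2% and 55.8% in the subtypes. UBC22 made up 3.50% ± 0.09 in WT and 1.24% to 1.38% in the subtypes. The sum itself was 12100 ± 63.9 counts per kb in WT. It was 13054 ± 1789 in Type I and 12191 ± 1005 in Type II. Type III reached 15053 ± 510.2 and Type IV 14522 ± 136, and all libraries of both lay above the highest WT library, 12171. The highest Type I library, 15089, and the highest Type II library, 13240, lay above it too. That Type I library was also above every Type IV library.

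The other members are described against WT for each subtype, and all 4 comparisons share the WT libraries. Of the 41 members, 33 had a mean of at least 10 normalised counts and were tested. The other 8 were UBC12, UBC26, UBC31, AT1G53023, AT1G62190, AT2G32790, AT2G38830 and AT3G12775, which had 19 reads or fewer over all 15 libraries, and UBC26 and AT3G12775 had 0. UBC26 is annotated as a transcribed pseudogene. Members were counted as higher or lower where limma's adjusted p was under 0.05.

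In Type I leaves, 1 of the 33 members passed the test, UBC22, where 0.0739% of all loci passed, 0.0455% higher and 0.0284% lower. The median log2 difference of the members was 0.05, beside a value near 0 for all loci. Without Type I replicate 2, 2 members passed, 1 higher and 1 lower. UBC8 had 1891, 1432 and 2650.0 normalised counts in Type I against 1417, 1228 and 1350.2 in WT, and did not pass (log2 0.54 ± 0.16, adjusted p = 0.177). Type I replicate 3 was also the highest library of its group for UBC28 and UBC10.

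In Type II leaves, 4 members rose and UBC22 fell, where 14.6% of all loci passed the test, 10.2% higher and 4.38% lower. The 4 that rose were RCE2, UBC29, UBC23 and UBC6, and all lie on chromosome 2, as does AT2G22890, the only other member tested there, which had a log2 difference of 0.49 and did not pass. Chromosome 2 as a whole stood higher in Type II, with a median log2 fold change of 0.50 over 2659 loci and 51.4% of them called higher. Of the 28 members on other chromosomes none rose and 1, UBC22, fell, where 2.73% of the loci there rose and 5.18% fell. UBC29, a UBCH5-type enzyme, had 218, 281 and 201 normalised counts against 118, 116 and 128 in WT, a log2 change of 0.93 ± 0.15 (adjusted p = 0.00103). UBC23, one of the large E2s, rose by 0.58 ± 0.09 and UBC6 by 0.46 ± 0.08, close to their chromosome. With each locus centred on its chromosome's median, none of the 4 passed, and UBC6 turned to -0.04.

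In Type III leaves, 17 members rose and 2 fell, the most of any subtype. Of all loci 47.6% passed, 24% higher and 23.6% lower, so the count of members lower was small beside the background and the count higher was above it. The median of the members was 0.30 on the log2 scale, beside -0.01 for all loci. On chromosome 3, whose median was 0.48 over 3533 loci with 56.6% called higher, all 8 members tested rose. They were UBC11, UBC13, UBC14, UBC19, UBC25, UBC37, ELC and COP10. Of the 25 members on other chromosomes 9 rose and 2 fell, where 15.9% of 13983 loci rose and 28.1% fell. Without WT replicate 1, which stands apart, 13 members rose and 2 fell.

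The subfamilies in Type III are to be read beside the 24% of all loci that rose and the 23.6% that fell. The 3 tested of 4 E2 variants and enzymes for other modifiers (RCE2, COP10 and ELC) all rose. So did both UBC7-type enzymes, UBC13 and UBC14, and both UBC13-type enzymes, UBC35 and UBC36. COP10, ELC, UBC11, UBC13 and UBC14 lie on chromosome 3, where 56.6% of loci rose and the median was 0.48. ELC rose by 0.57, and UBC13 and UBC14 by 0.49 each, close to that median. Of the UBCH5 type, 3 of 6 rose (UBC8, UBC11 and UBC28), by 0.41 to 0.65. Of the UBC4 to UBC6 group 2 of 3 rose. Among UBC15 to UBC18, UBC17 rose and UBC18 fell. Neither of the endoplasmic reticulum E2s UBC33 and UBC34 passed the test.

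UBC5 and UBC3 stood out from their own chromosomes in Type III. UBC5 (chromosome 1) had 831, 818 and 815 normalised counts against 322, 417 and 442 in WT, a log2 change of 1.07 ± 0.17 (adjusted p = 0.000105). Its chromosome's median was -0.10. UBC3 (chromosome 5), an E2 of the RAD6 type, had 471, 403 and 461 against 219.8, 226 and 262, a change of 0.91 ± 0.21 (adjusted p = 0.0021). It overlaps AT5G62550 on the other strand, and reads of the overlap cannot be told apart. In both genes the Type III libraries lay above every WT library.

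UBC17 and UBC18, relatives in the same subfamily, moved in opposite directions in Type III. UBC17 (chromosome 4) had 92.1, 91.9 and 99.9 normalised counts against 38.6, 47.3 and 44.5 in WT, a log2 change of 1.11 ± 0.27 (adjusted p = 0.00357). UBC18 (chromosome 5) had 161, 128 and 139 against 295, 197 and 241, a change of -0.76 ± 0.15 (adjusted p = 0.000888). UBC18 overlaps AT5G42980 on the other strand. UBC17 had 23.1, 24.8 and 61.0 counts in Type II, the widest spread of its groups.

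On chromosome 3 itself, UBC37 and COP10 rose beyond or near the chromosome's shift in Type III. UBC37 had 99.3, 75 and 99.9 normalised counts against 36.2, 37.3 and 30.1 in WT, a log2 change of 1.37 ± 0.24 (adjusted p = 0.00026), which is 0.90 above the chromosome's median. COP10, which works with DET1 to hold back light development, had 204, 216 and 226 against 119, 115 and 130.0, a change of 0.82 ± 0.14 (adjusted p = 0.000252), 0.34 above the median. Centred on its chromosome, COP10 no longer passed. The same held for the large E2 UBC25, which rose by 0.74 ± 0.12 (adjusted p = 0.000148) and by 0.27 when centred (adjusted p = 0.0817).

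In Type IV leaves, 12 members rose and 4 fell, where 33% of all loci passed, 16% higher and 17% lower. The members' median was 0.22 on the log2 scale and that of all loci 0.00108. Those that rose were RCE2, UBC5, UBC8, UBC10, UBC11, UBC25, UBC27, UBC28, UBC35, UBC36, COP10 and AT1G51730, and those that fell were UBC22, UBC29, UBC6 and UBC9. Chromosome 4, low as a whole in Type IV with a median of -0.41 over 2637 loci and 48.9% called lower, held 2 members tested. UBC9 fell by 0.27 ± 0.10 (adjusted p = 0.0431), less than its chromosome, stood at 0.15 when centred, and lost its call with any 1 of 9 libraries left out, while UBC17 had a log2 difference of 0.06. Of the 31 members on other chromosomes 12 rose and 3 fell, where 18.3% of 14879 loci rose and 11.4% fell. The count rested on single libraries, and was 8 higher and 2 lower without WT replicate 1 or without Type IV replicate 2, and 7 higher and 2 lower without Type IV replicate 1. It was 12 higher and 3 lower without Type IV replicate 3, which stands apart. The split also moved with the scaling, to 7 higher and 5 lower when scaled from chromosomes 1 and 5 and to 12 higher and 2 lower with library totals.

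Of the UBCH5 type in Type IV, 4 of 6 rose and 2 fell against WT. Against Type I, 1 was higher and 2 were lower, where 12.7% and 15.1% of all loci were. UBC10 did not pass against Type I (log2 0.27, limma adjusted p = 0.0861). UBC10, the E2 gene with the highest level per kb, had 4593, 4365 and 5070.5 normalised counts against 3560.5, 3373 and 3348 in WT, a log2 change of 0.45 ± 0.11 (adjusted p = 0.00701). UBC29 had 78.0, 74.5 and 90.9 against 118, 116 and 128, a change of -0.57 ± 0.15 (adjusted p = 0.00909). UBC10 was thus higher and UBC29 lower in every Type IV library than in any WT library. UBC27, a relative of animal UBE2K, had 478, 516 and 451 counts against 369, 334 and 319, a change of 0.50 ± 0.09 (adjusted p = 0.000702). UBC6 had 373, 398 and 369 counts against 444, 433 and 455, and its call was marginal (log2 -0.23 ± 0.08, adjusted p = 0.0492). It did not pass by edgeR (adjusted p = 0.0514) or DESeq2 (adjusted p = 0.0726), nor with any 1 of 13 libraries left out.

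**Figure D2:**
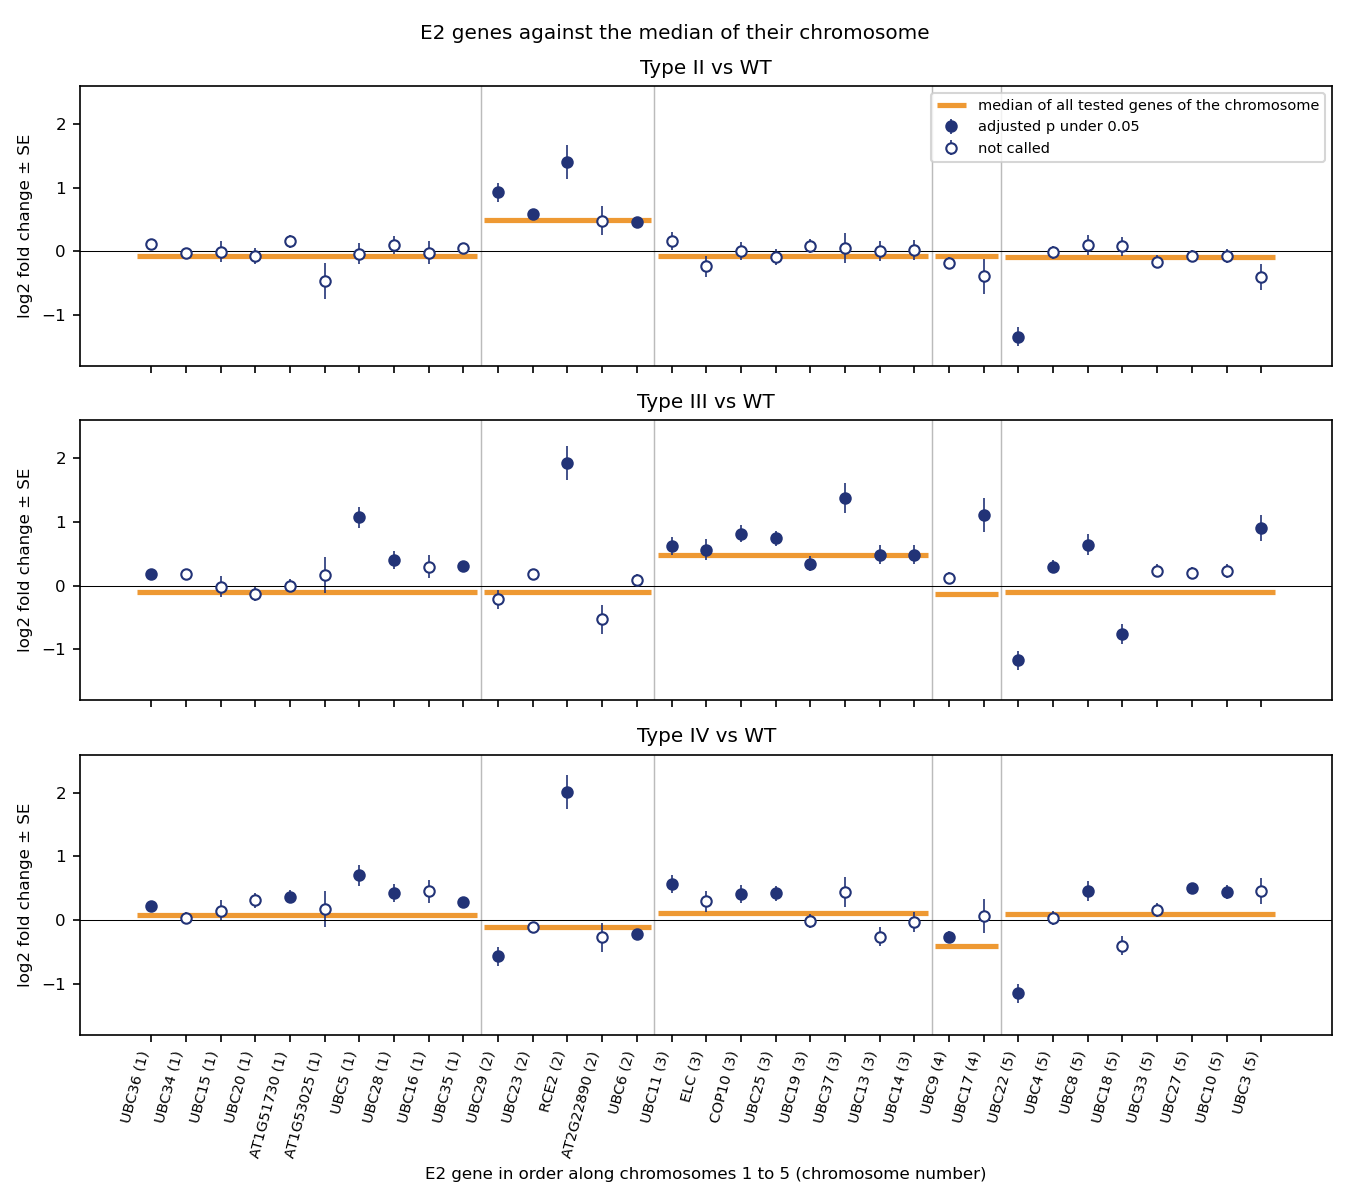
Log2 fold change ± SE of the 33 tested E2 genes (x axis, in order along chromosomes 1 to 5) against WT in Type II, Type III and Type IV, with n = 3 against 3; filled points have an adjusted p under 0.05 and the bars give the median of all tested genes of a chromosome. Chromosome 2 genes are raised in Type II, chromosome 3 genes in Type III, and UBC22 is low and RCE2 high in all 3 panels.

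RCE2, one of a pair of enzymes that attach RUB to the cullins of ubiquitin ligases, rose in Type II, Type III and Type IV and by the largest fold of any member. It had 16.4, 16.4 and 7.22 normalised counts in WT and 19.1, 14.5 and 16.3 in Type I. It had 42.1, 32.1 and 31.4 in Type II, 58.7, 42.2 and 52.0 in Type III, and 62.1, 49.0 and 50.9 in Type IV. All 9 libraries of the abnormal leaf forms lay above all WT and Type I libraries. These are low levels, 6 to 18 reads in a WT library and 31 to 78 in a library of Types II to IV.

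In Type I the log2 difference of RCE2 was 0.37 ± 0.27 (adjusted p = 0.539). Its change in Type II was 1.41 ± 0.27 (adjusted p = 0.00348). Type III gave 1.93 ± 0.27 (adjusted p = 4.83e-05), and Type IV 2.01 ± 0.27 (adjusted p = 0.000117). In Type II the change was 0.91 above the chromosome 2 median and did not pass when centred (adjusted p = 0.0864). In Types III and IV, where chromosome 2 stood at -0.11, it was 2.03 and 2.13 above it. RCE1, the more highly read enzyme of the pair, with a coding sequence 81.2% identical to that of RCE2 and a longest shared run of 26 bases, did not follow it. RCE1 lies on chromosome 4, and its levels were 1114, 1117 and 1136 in WT and 649, 683 and 696 in Type IV, a log2 change of -0.73 (adjusted p = 9.49e-05). The median of chromosome 4 in Type IV was -0.41, with 48.9% of its loci called lower.

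With the mean of the 4 subtypes set against WT, 5 members were higher and UBC22 was lower. Beside UBC22 (log2 -1.26 ± 0.12, adjusted p = 2.51e-05) these were RCE2 (1.43 ± 0.21, adjusted p = 0.000544), UBC5 (0.49 ± 0.13, adjusted p = 0.0154), UBC8 (0.44 ± 0.13, adjusted p = 0.0239), COP10 (0.34 ± 0.11, adjusted p = 0.0369) and UBC35 (0.18 ± 0.06, adjusted p = 0.0308). Of all loci 23.1% passed, 12.4% higher and 10.7% lower, so the count of E2 genes was near the background. Without WT replicate 3 the count was 2 higher and 1 lower. COP10 and UBC35 each lost the call when any 1 WT library was left out. COP10 also lost it without Type III replicate 2 or 3 or Type IV replicate 2, and UBC35 without Type III replicate 1. UBC5 lost it without WT replicate 1, and UBC8 without WT replicate 2 or 3. RCE2 kept it with each of the 15 libraries left out.

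UBC35, which pairs with the inactive MMZ proteins to build chains that signal rather than degrade, showed little spread. It had 511, 531 and 501 normalised counts in WT, 657, 623 and 642 in Type III, and 606, 639 and 642 in Type IV. The log2 change in Type III was 0.32 ± 0.07 (adjusted p = 0.00175). That in Type IV was 0.29 ± 0.07 (adjusted p = 0.00567), and neither overlapped WT. UBC5 had 639, 719.6 and 557 counts in Type IV, a change of 0.70 ± 0.17 (adjusted p = 0.00496). UBC8 had 2283, 1936 and 2035 in Type III and 1847, 1833 and 1803 in Type IV, changes of 0.65 ± 0.16 (adjusted p = 0.0044) and 0.46 ± 0.16 (adjusted p = 0.0411), and the highest of all libraries for UBC8 was Type I replicate 3 with 2650.0.

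**Figure D3:**
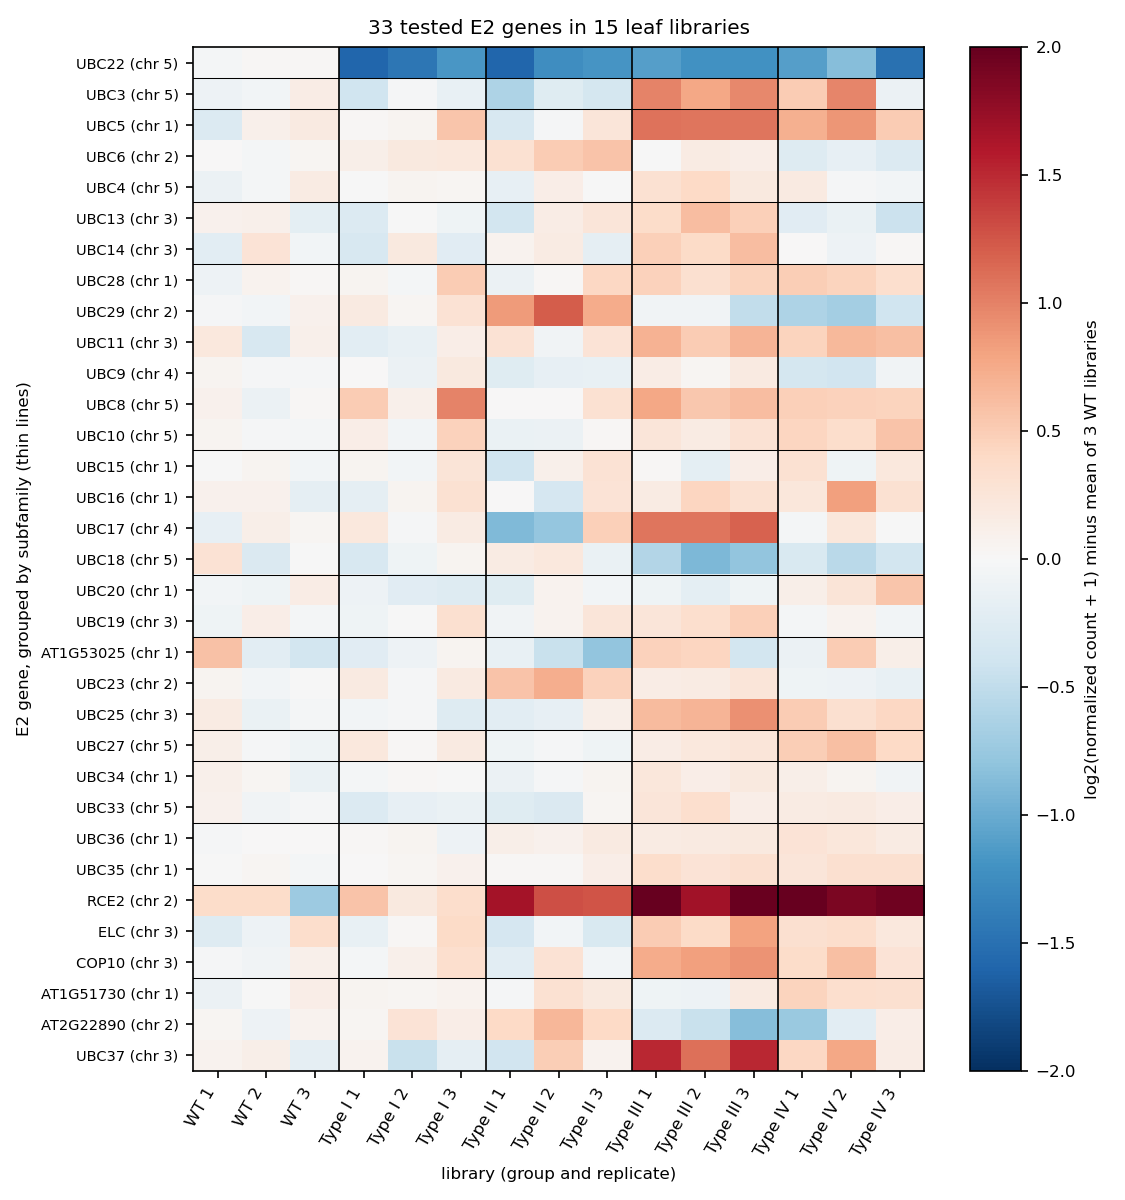
Each cell is log2(normalised count + 1) of 1 of the 33 tested E2 genes (rows, grouped by subfamily) in 1 of the 15 libraries (columns) minus the mean of the 3 WT libraries; colours end at -2 and 2. UBC22 is low in the 12 ubc22 libraries, RCE2 is high in the 9 libraries of Types II to IV, and most rows are raised in Type III.

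UBC29 and UBC6, both on chromosome 2, moved one way in Type II and the other way in Type IV. UBC29 stood between 201 and 281 normalised counts in Type II, 116 and 128 in WT and 74.5 and 90.9 in Type IV. The difference between Type IV and Type II was -1.50 ± 0.15 on the log2 scale (limma, adjusted p = 8.16e-06), beside a shift of -0.60 for chromosome 2 as a whole. UBC6 had 551, 630.0 and 657 counts in Type II, and the difference was -0.69 ± 0.08 (adjusted p = 3.02e-05), close to that of the chromosome. Between these subtypes 11 members were higher in Type IV and 5 lower, where 41.8% of all loci passed, 19.5% higher and 22.3% lower. On chromosome 2, 4 of 5 members were lower, where 70.1% of loci were. Type III against Type II had 17 higher and 5 lower, where 51.6% passed, 25.3% higher and 26.3% lower. There, 7 of 8 members on chromosome 3 were higher, where 63.3% of its loci were. On chromosome 2, 4 of 5 were lower, beside 67.6% of loci. Type IV against Type III had 3 higher and 10 lower, where 34.6% passed, 15.2% higher and 19.4% lower. Of these, 6 of 8 members on chromosome 3 were lower, beside 47.5% of its loci, and 2 of 2 on chromosome 4, beside 38.5%.

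Against Type I, the ubc22 plants with leaves like WT, E2 genes again rose more often than they fell, and these 3 comparisons share the Type I libraries. In Type II, 4 members were higher and 0 lower, where 14.3% of all loci passed, 9.45% higher and 4.81% lower, and all 4 lie on chromosome 2. Without Type I replicate 3, 2 were higher. By limma 8 members had an unadjusted p under 0.05 in that comparison, in either direction. In Type III, 15 were higher and 2 lower, where 41.6% passed, 21.3% higher and 20.3% lower. Of the 8 tested on chromosome 3, 7 were higher, where 56.1% of loci were. Of the 25 on other chromosomes 8 were higher and 2 lower, where 12.5% and 24.2% of loci were. In Type IV, 11 were higher and 3 lower, where 27.8% passed, 12.7% higher and 15.1% lower. This count was 6 higher and 2 lower without Type I replicate 1 or Type IV replicate 1, 5 and 2 without Type IV replicate 2, and 6 and 4 when scaled from chromosomes 1 and 5. RCE2 was 1.03 ± 0.27 higher in Type II than in Type I on the log2 scale (adjusted p = 0.0198). Its difference was 1.55 ± 0.27 for Type III (adjusted p = 0.000353), and for Type IV it was 1.64 ± 0.27 (adjusted p = 0.000707). The Type II difference did not pass without Type I replicate 2 or 3 or Type II replicate 1 (adjusted p up to 0.0755). UBC20, the second UBE2C relative, was 0.50 ± 0.12 higher in Type IV than in Type I (adjusted p = 0.0069). Against WT it did not pass in Type IV (log2 0.31, limma adjusted p = 0.0577), and it differed by -0.19 in Type I (adjusted p = 0.475).

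**Figure D4:**
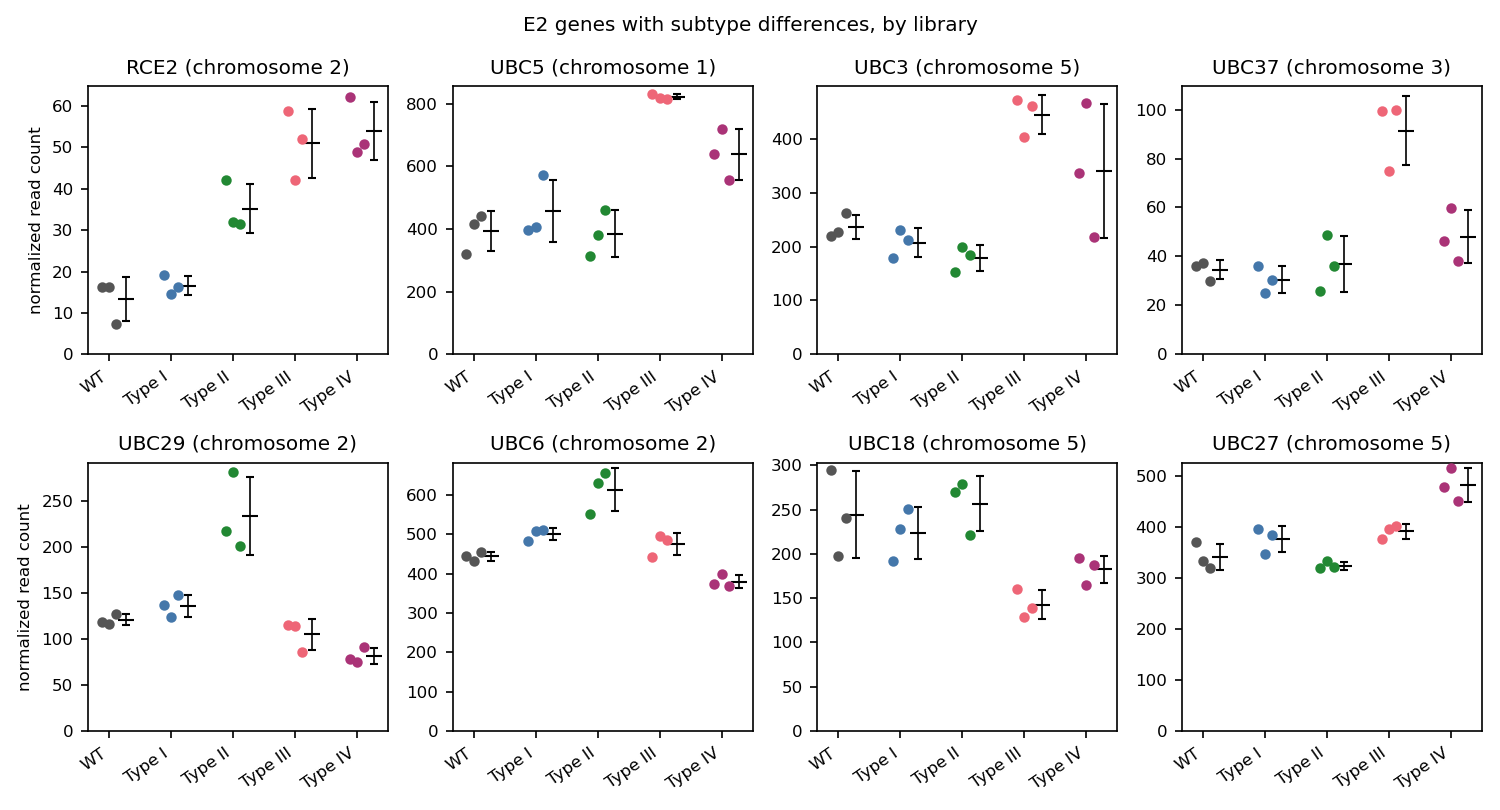
Normalised read counts (y axes, linear from 0) of 8 E2 genes in each of the 15 libraries, by group; dots are libraries and the bar beside them is the mean ± SD of 3. RCE2 is above WT and Type I in all libraries of Types II to IV, and UBC29 is highest in Type II and lowest in Type IV.

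E2 genes and relatives that the deposited table annotates in other words, 10 in all, were set beside the 41. Of these, 3 rose in Type II, where 10.2% of all loci rose, and these (UBC2, PHO2 and MMZ3) lie on chromosome 2, where 51.4% did. In Type III 6 rose, where 24% of all loci rose. In Type IV 4 rose and 1 fell, where 16% and 17% of all loci did. UBC2, a RAD6-type enzyme that with UBC1 mono-ubiquitinates histone H2B, had 495, 486 and 498 normalised counts in WT, 785, 777 and 933 in Type II, 1199, 1300.3 and 1199 in Type III, and 781, 821 and 745 in Type IV. It was above WT in each of these 9 libraries, with log2 changes of 0.75, 1.32 and 0.66 (adjusted p = 0.000623, 4.31e-07 and 0.00051). PHO2, the large E2 that limits phosphate uptake, also on chromosome 2, rose by 0.80 in Type II (adjusted p = 9.02e-05) and 0.84 in Type III (adjusted p = 1.67e-06), and differed by -0.04 in Type IV. SCE1 rose by 0.57 in Type III (adjusted p = 0.000321) and MMZ4, a partner of the UBC13-type enzymes, by 0.93 (adjusted p = 1.97e-06). Both lie on chromosome 3, where the median was 0.48 in Type III and 56.6% of loci rose.

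The genes before and after the E2 step are given by their counts, to be read against the share of all loci called, which was 14.6% for Type II, 47.6% for Type III and 33% for Type IV. By direction, 10.2% of all loci rose and 4.38% fell in Type II, 24% and 23.6% in Type III, and 16% and 17% in Type IV. Of the 2 E1 genes, UBA1, on chromosome 2, rose by 0.38 in Type II (adjusted p = 0.0372) and fell by 0.40 in Type IV (adjusted p = 0.0134). The median of chromosome 2 was 0.50 in Type II and -0.11 in Type IV. Of 9 ubiquitin genes, 2 rose and 1 fell in Type II, 2 rose and 2 fell in Type III, and 2 rose in Type IV. UBQ3, a polyubiquitin gene, had 2067, 1395 and 1569 normalised counts in WT, 4048, 4330.3 and 4169 in Type III, and 3865, 3529.8 and 3137 in Type IV, log2 changes of 1.34 and 1.08 (adjusted p = 5.18e-06 and 0.000124). Of 17 ligase and partner genes tested, 3 rose in Type II (HUB1, COP1 and PEX10). All lie on chromosome 2, where 51.4% of loci rose in Type II. In Type III 3 rose and 3 fell, beside 24% and 23.6% of all loci, and in Type IV 2 rose and 4 fell, beside 16% and 17%. Of the E1 subunits for other modifiers, 4 were tested, of which 1 rose in Type II, 1 fell in Type III, and 1 rose and 1 fell in Type IV. SAE2, with 152% of the WT mean in Type II, lies on chromosome 2, where 51.4% of loci rose. SAE1A, with 65.5% of the WT mean in Type IV, lies on chromosome 4, where 48.9% of loci fell.

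COP1 and DET1, which act with COP10, did not rise with it in Type III or Type IV. COP10 lies on chromosome 3, whose median was 0.48 in Type III and 0.11 in Type IV. COP1, the light-signalling ligase, on chromosome 2, rose by 0.35 in Type II (adjusted p = 0.0195) and fell by 0.74 in Type III (adjusted p = 1.59e-05). In Type IV it fell by 0.25 (adjusted p = 0.0463). The median of chromosome 2 was 0.50 in Type II and -0.11 in Type III and in Type IV. DET1, on chromosome 4, fell by 0.26 in Type III (adjusted p = 0.0279) and by 0.69 in Type IV (adjusted p = 0.000107). The median of chromosome 4 was -0.12 in Type III and -0.41 in Type IV. Clock genes moved in the same libraries, with log2 changes of 6.10 for PRR5 and -2.845 for CCA1 in Type III and of 4.00 and -0.60 in Type IV, and their part in the E2 changes was not tested.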

How the data were processed

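RNA from leaves was read in 15 libraries (TruSeq RNA Sample Preparation Kit v2, per the labels' protocols). The submitters' processing notes name STAR 2.4.0j, StringTie 1.0.3, HTSeq 0.6.0, DESeq2 1.12.4 and TAIR10. The deposited values are a signal made by the authors, read counts per locus divided by a size factor per library; 100% of them are whole multiples of the value of 1 read (tolerance 1e-06), so reads could be recovered. Rows without a gene code hold 0.136% of reads.

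The values were tested on the scale of log2(value + 1) with limma 3.58.1 (trend) in R 4.3.3, with all 15 libraries in 1 fit, over 17595 loci with a mean of at least 10, and with Benjamini-Hochberg adjustment at 0.05. The comparison of all ubc22 plants weights the 4 subtypes equally. The fit was also run on simulated data with scattered changed loci, 1 spread for all loci and no chromosome-wide shift. That run therefore does not show how the fit behaves under the shifts and outlying libraries seen here. Pseudocount, filter, scaling, edgeR 4.0.16, DESeq2 1.42.0, limma-voom on recovered reads, centring per chromosome and each left-out library were tried as alternatives. Replicates are biological per the labels, whose protocols do not say whether they came from separate plants or pools. Gene models and coding sequences came from RefSeq TAIR10.1, where all 41 members matched, and were read with Biopython 1.88. Levels per kb divide a value by the union of a gene's annotated exons.

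Named members are those called in the same direction in at least 3 subtypes or in all ubc22 plants against WT, the 4 called members each way with the smallest p in a comparison, and those farthest from their chromosome's median. UBC10 was described beside these after its values were seen. The members and lists were chosen with earlier results of these data known. UBC30, UBC32 and MMZ2 were not analysed here. Genes with close relatives (coding identity up to 91.2%, UBC9 and UBC10) and the 13 members that overlap another gene, UBC22, UBC3, UBC6, UBC13, UBC16, UBC18, UBC20, UBC23, UBC36, ELC and AT1G51730 among them, are less certain, since the handling of shared reads is not given in the sources used here.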

Additional observations from a re-analysis of the deposited data

Results flagged for a closer look

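UBC29 and UBC6 are listed because both passed the test in opposite directions against WT in Type II and Type IV, and because the difference between these subtypes itself passed it. UBC29 was -1.50 in Type IV minus Type II on the log2 scale (limma, adjusted p = 8.16e-06). UBC6 was -0.69 (limma, adjusted p = 3.02e-05), and its call against WT in Type IV was marginal (adjusted p = 0.0492). Chromosome 2, which holds both genes, had a median of -0.60 between these subtypes. UBC29 lay 0.90 below that median and UBC6 0.08 below it. With each locus centred on its chromosome's median, neither gene passed in Type II against WT, and UBC6 did not pass in Type IV. UBC29 kept its call in Type IV.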

How the results depend on the processing

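No paired analysis was possible because the labels give no replicate number that groups share. With each locus centred on its chromosome's median, the members called fell from 5 to 1 (0 higher, 1 lower) in Type II against WT, from 16 to 9 (6 higher, 3 lower) in Type IV against WT, from 4 to 0 in Type II against Type I and from 14 to 7 in Type IV against Type I. That last count was 9 with the compared groups fitted alone. Scaling taken from chromosomes 1 and 5 was chosen after seeing the data, and gave 7 higher and 5 lower in Type IV against WT; library totals gave 12 and 2, and moved the median of all loci in Type IV against Type I to 0.117. UBC22 in Type IV minus Type III turned to -0.16 when scaled from chromosomes 1 and 5 and to -0.17 when centred. Centring also turned UBC6 in Type II (-0.040 against WT, -0.21 against Type I), UBC23 in Type II against Type I (-0.032) and UBC9 in Type IV (0.15 against WT, 0.12 against Type I). Leaving out 1 library at a time, the members called ranged from 1 to 2 in Type I, 5 to 6 in Type II, 14 to 20 in Type III, 9 to 17 in Type IV and 3 to 9 in all ubc22 plants against WT. Against Type I they ranged from 2 to 4 in Type II (2 without Type I replicate 3), 14 to 18 in Type III and 7 to 16 in Type IV (8 without Type I replicate 1 or Type IV replicate 1, 7 without Type IV replicate 2). UBC22 ranged from -0.036 to 0.19 for Type II minus Type I (below 0 without Type I replicate 1 or Type II replicate 3), 0.10 to 0.42 for Type IV minus Type I and -0.12 to 0.19 for Type IV minus Type III. UBC22 against WT kept its direction and call in each subtype under every setting run. Over the 45 results of named members, UBC22 against WT included, 542 values under the settings other than leaving out a library kept their direction and call, 32 kept their direction but no longer passed, and 5 reversed. With a library left out 621 kept both, and 54 kept their direction but no longer passed. RCE2, UBC17 and UBC37 have few reads, which limits their precision.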
